A study of Saccharomyces cerevisiae with 8 samples.

Results

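Of the 275 nuclear tRNA genes among the 7126 features counted in budding yeast, 60 belong to the 10 anticodon families whose genes carry an intron, and these 60 genes are described here. The rule that picks them uses gene names alone and no measured value. They comprise tF(GAA) for phenylalanine with 10 genes, tI(UAU) for isoleucine with 2, tK(UUU) for lysine with 7, tL(CAA) and tL(UAG) for leucine with 10 and 3, tP(UGG) for proline with 10, tS(CGA) and tS(GCU) for serine with 1 and 3, tW(CCA) for tryptophan with 6 and tY(GUA) for tyrosine with 8. In the annotation of the genome build R64 all 60 have 2 exons, and none of the other 215 nuclear tRNA genes, in 32 families, does. Counts were summed over the genes of a family.

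Total RNA came from Saccharomyces cerevisiae grown in YPD, a rich medium, and RNA between 50 and 100 nt was selected before sequencing. The 4 groups of 2 libraries were ubc9-1 cells given 100 nM rapamycin for 30 min, untreated ubc9-1 cells, wild-type (WT) cells, with UBC9 as strain label, given the same rapamycin treatment, and untreated WT cells. Ubc9 is the enzyme that conjugates the small protein SUMO to its targets, ubc9-1 is a mutant of it, and rapamycin inhibits the growth-controlling kinase complex TORC1; the series asks how TORC1 and SUMO act on RNA polymerase III. The labels state neither a growth temperature nor whether the 2 libraries of a group were separate cultures, so the p-values rest on the spread among libraries that may be technical repeats.

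RNA polymerase III makes tRNA as a longer precursor. In yeast the precursor is trimmed at both ends and exported from the nucleus, the SEN endonuclease at the mitochondrial surface cuts out the intron, and the ligase Trl1 joins the ends. Intron-containing precursors are known to accumulate when splicing or export is impaired, and several base modifications need the intron to be present.

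The most counted gene of each family is given here, from the shortest to the longest, because length and intron are what set these families apart from the other tRNAs. Each sequence was read from the strand of the gene in R64, 5′ to 3′, with the intron in capitals.

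tY(GUA)F1: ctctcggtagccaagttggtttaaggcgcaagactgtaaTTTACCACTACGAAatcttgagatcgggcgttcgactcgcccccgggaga

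tF(GAA)P1: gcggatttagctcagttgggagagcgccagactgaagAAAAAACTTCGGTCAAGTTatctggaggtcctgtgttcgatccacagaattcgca

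tK(UUU)K: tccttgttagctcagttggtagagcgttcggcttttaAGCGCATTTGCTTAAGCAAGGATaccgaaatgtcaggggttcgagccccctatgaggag

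tL(UAG)L1: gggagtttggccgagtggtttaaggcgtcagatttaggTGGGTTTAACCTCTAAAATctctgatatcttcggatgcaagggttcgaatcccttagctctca

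tS(CGA)C: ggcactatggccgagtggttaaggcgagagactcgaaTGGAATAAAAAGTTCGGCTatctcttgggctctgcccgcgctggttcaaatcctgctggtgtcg

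tS(GCU)F: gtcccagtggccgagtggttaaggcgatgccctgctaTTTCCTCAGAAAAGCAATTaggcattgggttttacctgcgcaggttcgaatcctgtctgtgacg

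tP(UGG)F: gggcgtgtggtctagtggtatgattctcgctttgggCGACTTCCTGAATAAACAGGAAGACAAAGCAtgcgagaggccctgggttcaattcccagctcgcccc

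tW(CCA)K: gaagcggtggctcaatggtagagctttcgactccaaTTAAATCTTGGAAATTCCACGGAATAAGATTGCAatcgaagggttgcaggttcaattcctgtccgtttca

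tL(CAA)G3: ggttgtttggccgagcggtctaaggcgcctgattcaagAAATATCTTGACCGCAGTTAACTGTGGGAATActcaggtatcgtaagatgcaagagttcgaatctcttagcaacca

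tI(UAU)L: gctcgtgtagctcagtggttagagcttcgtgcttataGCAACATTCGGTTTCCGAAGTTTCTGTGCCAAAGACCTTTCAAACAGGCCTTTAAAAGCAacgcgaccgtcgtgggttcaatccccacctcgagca

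In all 60 genes the anticodon ended 1 base before the intron. The 10 genes lie at chrVI:167437-167525 (+) for tY(GUA)F1, chrXVI:560198-560289 (-) for tF(GAA)P1, chrXI:578965-579060 (+) for tK(UUU)K, chrXII:592519-592619 (-) for tL(UAG)L1, chrIII:227942-228042 (+) for tS(CGA)C, chrVI:191513-191613 (-) for tS(GCU)F, chrVI:101376-101478 (+) for tP(UGG)F, chrXI:302918-303023 (+) for tW(CCA)K, chrVII:857378-857491 (-) for tL(CAA)G3 and chrXII:605300-605432 (-) for tI(UAU)L. The 60 genes hold 29 distinct gene sequences, 27 distinct introns of 14 to 60 nt and 14 distinct sequences of 72 to 82 nt once the intron is taken out. The intron contained the complement of the anticodon, with which it can pair, in 40 of 60 genes, and in 16 of 27 distinct introns. Of the pairs of a family with an intron of another family, 77 of 243 held such a match. All genes of both leucine, both serine, the tryptophan and the tyrosine families and 9 of 10 phenylalanine genes held it, while no gene of the isoleucine, lysine and proline families did. The B box letters GTTCGANNC, part of the internal promoter that the factor TFIIIC binds, were found on the sense strand of 41 of 60 members (68.3%) and of 159 of 215 other nuclear tRNA genes (74.0%). All genes of tI(UAU), tP(UGG), tS(CGA) and tW(CCA) lacked these letters, and all 60 members held GTTCNANNC, which contains every match of the other motif, as did 210 of 215 other genes; on the antisense strand the first motif occurred in 0 and the second in 2 of the 275 genes.

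The annotated gene, intron included, is 89 to 133 nt long, and 34 of the 60 genes exceed 100 nt, the upper bound of the size selection. The intronless families span 71 to 100 nt, where only the family tX(XXX), of 1 gene, exceeds 84 nt. Counts were made over the whole gene, so spliced and unspliced RNA cannot be told apart in them, and fewer cells or less RNA per cell cannot be told apart either. Each alignment of a read with several matches was counted without use of the strand, so copies with one sequence share reads. Such a read can be counted once in each copy, so family sums and shares also rise with the number of alike copies.

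Library totals were 14304014 to 21061460 assigned counts, of which the 10 families held 51358 to 271455. UBC9 had 221 and 298 counts in ubc9-1 with rapamycin, 307 and 554 in untreated ubc9-1, 79 and 114 in WT with rapamycin, and 2 and 74 in untreated WT. The ubc9-1 libraries exceeded those of WT by 3.27 (log2, SE 0.601, adjusted p = 0.00849) without the drug and by 2.30 (SE 0.562, adjusted p = 0.0337) with it. The strains also differed at marker genes, named after their values were seen. ADE2 had 112 and 200 counts in ubc9-1 with rapamycin, 189 and 302 in untreated ubc9-1, 0 and 0 in WT with rapamycin, and 14 and 9 in untreated WT; TRP1 had 22 to 92 counts in ubc9-1 libraries and 0 in all WT libraries. Their part in any strain difference below was not tested.

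Family levels differed widely. Levels here are means over the genes of a family, per kilobase of gene, in CPM (counts scaled to a fixed library total). Identical genes can each hold the same reads, so these means are not the output of single copies. Families with different numbers of identical genes are not strictly comparable on this scale. tF(GAA) averaged 5945 ± 1480 and tL(CAA) 4972 ± 1102 in untreated WT (SD, n = 2 here and below). They were followed by tY(GUA) at 2461 ± 328, tS(CGA) at 1286 ± 221, tL(UAG) at 1105 ± 239 and tW(CCA) at 921 ± 16.3. Below these, tK(UUU) averaged 687 ± 156, and tS(GCU) 378 ± 282. The lowest were tP(UGG) at 107 ± 32.4 and tI(UAU) at 91.2 ± 0.509. Between neighbours in this order, the libraries of tF(GAA) and tL(CAA), of tS(CGA) and tL(UAG), of tK(UUU) and tS(GCU), and also of tP(UGG) and tI(UAU) overlapped. Among all 42 families tF(GAA) ranked 10 and tI(UAU) 41 on this scale.

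**Figure D1:**
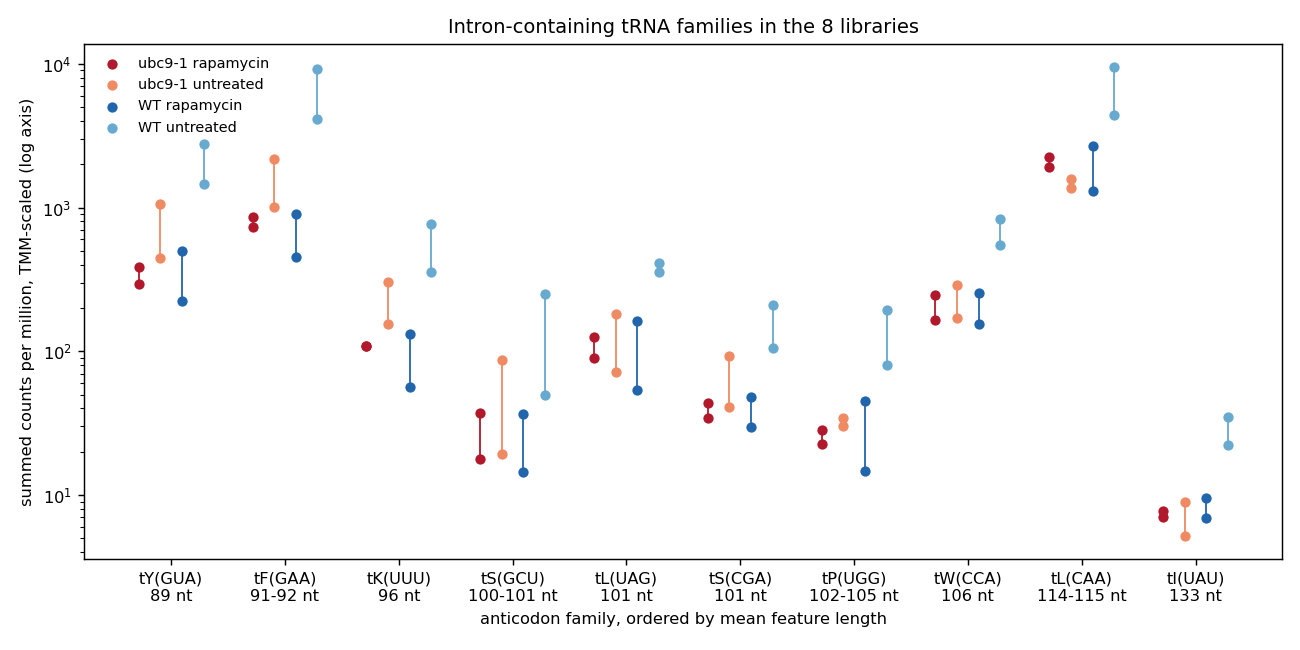
Summed CPM of each intron-containing family, scaled by TMM factors (log axis), in the 2 libraries of each group, with families ordered by gene length; the line joins the libraries. Both libraries of rapamycin-treated WT lie below both of untreated WT in all 10 families, and the rapamycin-treated groups of the 2 strains overlap in all 10. No such count was made over all rows.

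The 10 families all fell in WT after 30 min of rapamycin. This comparison asks how TORC1 inhibition affects these tRNAs in normal cells. Levels from here on are CPM scaled by TMM factors, which set the libraries against the bulk of all features. Overlap of libraries between groups was looked at in the 10 families only. No share over all rows stands beside it, here or below, so it only describes the libraries. The edgeR quasi-likelihood test called a family at a Benjamini-Hochberg adjusted p under 0.05 over the 5893 rows tested. Of these, 10.5% were called lower (620 lower and 604 higher; 194 and 527 with scaling by total counts), and the median log2 fold change over all rows was 0.08. The 10 families had a median of -2.11 and a range of -3.31 to -1.75. Of the 32 intronless families, 18 were called lower and 0 higher, with a median of -1.35 and a range of -3.28 to -0.09. The lower end is tX(XXX), 1 gene with 702 and 117 counts in untreated WT, and the next is tS(AGA) at -2.63.

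The phenylalanine family had the largest fall. tF(GAA) stood at 900 and 454 CPM in rapamycin-treated WT, against 9244 and 4137 CPM in untreated WT, a log2 change of -3.31 (SE 0.478, adjusted p = 0.00013). The lower untreated library was more than the sum of both treated ones. Lysine tK(UUU) stood at 133 and 56.3 CPM in rapamycin-treated WT and 771 and 356 CPM in untreated WT, a change of -2.58 (SE 0.46, adjusted p = 0.000818). Tyrosine tY(GUA) stood at 497 and 225 CPM in rapamycin-treated WT and 2760 and 1459 CPM in untreated WT, a change of -2.55 (SE 0.471, adjusted p = 0.00113). Neither family overlapped between its groups.

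The serine family tS(GCU), at 36.7 and 14.5 CPM in rapamycin-treated WT and 251 and 49.7 CPM in untreated WT, fell by 2.56 (adjusted p = 0.0156) with the widest error of the 10, an SE of 0.70. It stood at -0.98 (adjusted p = 0.344) without the first untreated WT library and at -2.03 (adjusted p = 0.153) without the second rapamycin-treated one. Its groups came closest to meeting, and its untreated libraries differed 5.06-fold. Proline tP(UGG) fell by 2.20 (SE 0.46) and serine tS(CGA) by 2.02 (SE 0.413), with adjusted p = 0.00276 and 0.00235.

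The smallest falls were in the long genes and in tL(UAG), which fell by 1.83 (SE 0.472, adjusted p = 0.0111). tL(CAA), the most counted family in the treated libraries, had 2695 and 1300 CPM in rapamycin-treated WT and 9450 and 4403 CPM in untreated WT, a change of -1.79 (SE 0.409, adjusted p = 0.00497). tI(UAU), with the longest intron, had 9.50 and 6.88 CPM in rapamycin-treated WT and 34.8 and 22.4 CPM in untreated WT, a change of -1.80 (SE 0.342, adjusted p = 0.00136). tW(CCA) had 256 and 154 CPM in rapamycin-treated WT and 833 and 546 CPM in untreated WT, a change of -1.75 (SE 0.376, adjusted p = 0.00329). Each of these families was apart between groups too. Without the second rapamycin-treated WT library tL(CAA) stood at -1.36, tL(UAG) at -1.24, tS(GCU) at -2.03 and tW(CCA) at -1.42. Without the first untreated WT library tL(CAA) stood at -1.17 and tS(GCU) at -0.98. The families named for each fit did not pass in it. In both fits 1 group had 1 library, and fewer of all rows were called lower than with all libraries. Without the first rapamycin-treated WT library the median was -3.02.

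In ubc9-1 the same drug gave no call. Of all rows, 1.95% were called in either direction (57 lower and 58 higher; 2 and 35 with scaling by total counts, 170 and 29 with scaling by snoRNAs). None of the 10 families passed the edgeR test in either direction. An unadjusted p under 0.05 was reached by 3, namely tF(GAA), tK(UUU) and tY(GUA), and by 608 of the 5893 rows. The DESeq2 Wald test also called 0 of the 10, beside 98 rows lower and 77 higher of 5893. The median log2 fold change was -0.56, beside -0.26 over the intronless families, of which 0 were called, and 0.00 over all rows. It was 0.10 without the first untreated ubc9-1 library, -0.995 without the second and -1.11 with scaling by snoRNAs. The highest was tL(CAA), at 2265 and 1908 CPM in rapamycin-treated ubc9-1 and 1593 and 1366 CPM in untreated ubc9-1, a difference of 0.50 (SE 0.398, adjusted p = 0.797). The lowest was tY(GUA), at 386 and 292 CPM in rapamycin-treated ubc9-1 and 1057 and 446 CPM in untreated ubc9-1, a difference of -1.15 (SE 0.451, adjusted p = 0.314), which was -0.39 without the first untreated ubc9-1 library and -1.64 without the second. The groups overlapped in 5 families, the treated libraries were the lower in 4 and the higher in 1, with no such count over all rows. With TMM factors from snoRNAs the test called tF(GAA), tK(UUU) and tY(GUA) lower. With the replicate number as a block it called tY(GUA) alone, beside 136 rows lower and 100 higher of 5893.

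The drug response itself was compared between the strains by the interaction term, the log2 fold change in ubc9-1 minus that in WT. It was above 0 in all 10 families, from 1.25 in tS(CGA) to 2.31 in tF(GAA), and edgeR called 0 of them, with 0.339% of all rows called in either direction (4 lower and 16 higher; 15 and 6 with scaling by snoRNAs). An unadjusted p under 0.05 was reached by 9 of 10, and by 806 of the 5893 rows. For tF(GAA) the term was 2.31 (SE 0.627, adjusted p = 0.126), for tL(CAA) 2.29 (SE 0.568, adjusted p = 0.111) and for tI(UAU) 1.88 (SE 0.485, adjusted p = 0.111). DESeq2 called 4, namely these 3 and tW(CCA), beside 29 rows lower and 79 higher of 5893. A fit with the replicate number as a block called all 10, beside 109 rows lower and 147 higher of 5893. The labels do not say that the numbers pair the samples. Without the first untreated WT library the term for tS(GCU) was 0.0194, against 1.60 with all libraries. The median was 1.60, against 1.17 over the intronless families and -0.09 over all rows.

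Without the drug all 10 families had negative log2 fold changes in ubc9-1 against WT, and 5 of the 10 were called lower. An unadjusted p under 0.05 in the edgeR test was reached by all 10, and by 1310 of the 5893 rows. Of all rows 2.02% were called lower (119 lower and 174 higher; 22 and 16 with scaling by total counts, 17 and 1525 with scaling by snoRNAs). tL(CAA) stood at 1593 and 1366 CPM in untreated ubc9-1 and at 9450 and 4403 CPM in untreated WT, a change of -2.23 (SE 0.415, adjusted p = 0.00906). tF(GAA) stood at 2173 and 1014 CPM in untreated ubc9-1 and at 9244 and 4137 CPM in untreated WT, a change of -2.07 (SE 0.455, adjusted p = 0.0183). tI(UAU) stood at 8.95 and 5.19 CPM in untreated ubc9-1 and at 34.8 and 22.4 CPM in untreated WT, a change of -2.02 (SE 0.348, adjusted p = 0.00563). In each of these families both mutant libraries were below both WT libraries. tP(UGG) fell by 2.08 (adjusted p = 0.0188) and tW(CCA) by 1.59 (adjusted p = 0.0245).

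The other 5 families, tK(UUU), tL(UAG), tS(CGA), tS(GCU) and tY(GUA), stood at -1.60 to -1.25 with adjusted p from 0.0577 to 0.199. Of the 10 families the groups overlapped in tS(GCU) alone, with no such count over all rows. It had 86.8 and 19.3 CPM in untreated ubc9-1 and 251 and 49.7 CPM in untreated WT. The median of the 10 was -1.59, against -1.32 over the intronless families, of which 12 of 32 were called lower. The calls moved with the libraries used. Without the second untreated ubc9-1 library tF(GAA) stood at -1.62, tP(UGG) at -1.98 and tW(CCA) at -1.26. Without the first untreated WT library they stood at -1.38, -1.31 and -1.25. These families passed in neither fit, where fewer of all rows were called lower too. Without the first untreated ubc9-1 library tL(UAG), tS(CGA), tS(GCU) and tY(GUA) stood at -2.38, -1.93, -2.93 and -2.22. With all libraries, the number called was 2 with scaling by total counts or by snoRNAs. It was 8 with DESeq2, beside 246 rows lower and 274 higher of 5893. With the replicate number as a block it was 10, beside 324 rows lower and 470 higher of 5893.

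With the drug no difference between the strains was detectable in these families. Differences ran from -0.23 in tP(UGG) to 0.24 in tF(GAA), with SEs of 0.343 to 0.669, and the groups overlapped in all 10. The edgeR test called 0 of 10, and 0 had an unadjusted p under 0.05. Of all rows, 4.14% were called in either direction (105 lower and 139 higher, or 5 and 50 with scaling by snoRNAs). DESeq2 also called 0 of the 10, beside 200 rows lower and 222 higher of 5893. Over all rows, 1146 of 5893 had an unadjusted p under 0.05 in the edgeR test. tL(CAA) stood at 2265 and 1908 CPM in rapamycin-treated ubc9-1 and at 2695 and 1300 CPM in rapamycin-treated WT. Of the 32 intronless families 2 were called lower. Scaling by total counts turned the sign of 7 of the 10 differences.

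**Figure D2:**
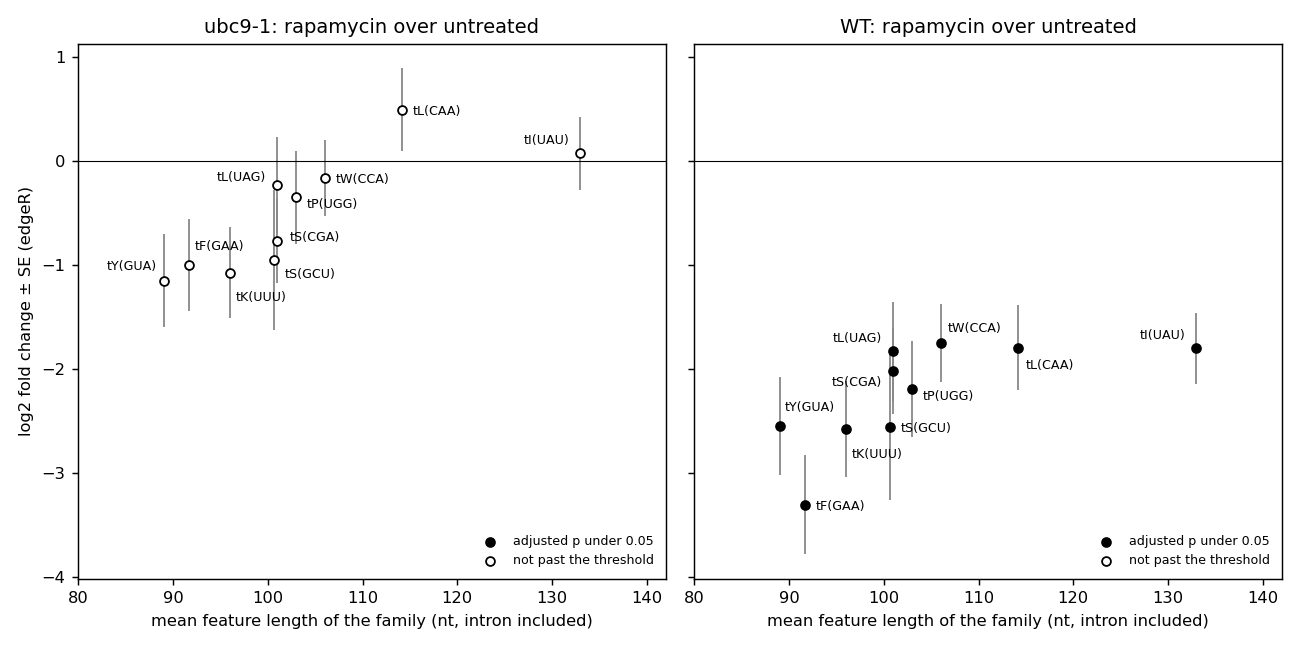
Log2 fold change with rapamycin (edgeR, ± SE, n = 2 libraries per group) of the 10 families against mean gene length, in ubc9-1 and in WT; filled points passed the test. The 3 families under 100 nt lie at -1.15 to -0.997 in ubc9-1 and -3.31 to -2.55 in WT. The 7 families of 100 nt or longer lie at -0.951 to 0.496 in ubc9-1 and -2.56 to -1.75 in WT.

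The families with the shorter genes tended to have the lower log2 fold changes with rapamycin in both strains. The order was not strict, as in WT tS(GCU), of 100 to 101 nt, stood at -2.56 and tY(GUA), of 89 nt, at -2.55. The 3 families under 100 nt, tY(GUA), tF(GAA) and tK(UUU), had medians of -1.07 in ubc9-1 and -2.58 in WT, against -0.23 and -1.83 for the 7 families of 100 nt or longer. Across the 10 families the fold change ranked with gene length at a Spearman rho of 0.95 in ubc9-1 and 0.84 in WT (Pearson r 0.78 and 0.66), and at 0.95 and 0.83 without tI(UAU). Leaving out 1 library, a check added after the data were seen, gave values down to 0.72 in ubc9-1, without its first untreated library, and 0.60 in WT, without its first untreated library. The rank with intron length was lower, at 0.76 and 0.64, and that with length once the intron is taken out was 0.08 and 0.09. Over the 32 intronless families rho with length was 0.12 in ubc9-1 and -0.70 in WT. These values describe families that share libraries and, per strain, control samples, and no test was made. Length also differs together with sequence. With the intron, the genes of 7 of the 10 families lie at or beyond the upper bound of the size selection. Once the intron is taken out, all are 72 to 82 nt and lie within it. The part of sequence or of size selection was not tested.

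The make-up of the family counts within a library does not depend on scaling. It does depend on the number of alike copies, in each of which a read can be counted, so shares are compared between libraries only. tL(CAA) held 55.2% and 56.4% of the counts of the 10 families in rapamycin-treated ubc9-1, 27.4% and 41.2% in untreated ubc9-1, 56.4% and 56.3% in rapamycin-treated WT, and 39.1% and 38.2% in untreated WT. tF(GAA) held 20.9% and 21.8% in rapamycin-treated ubc9-1, 37.4% and 30.5% in untreated ubc9-1, 18.8% and 19.7% in rapamycin-treated WT, and 38.3% and 35.9% in untreated WT. The treated and untreated libraries were apart in both strains for both families.

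The count-weighted mean length of the 10 families was 105.5 and 105.6 nt in rapamycin-treated ubc9-1, 99.1 and 102.1 nt in untreated ubc9-1, 105.7 and 105.8 nt in rapamycin-treated WT, and 101.4 and 101.4 nt in untreated WT. It was higher in every treated library than in every untreated one. Within tF(GAA), the 3 genes of 91 nt held 14.2% and 15.8% of the family's counts in rapamycin-treated ubc9-1, 13.9% and 15.1% in untreated ubc9-1, 18.1% and 15.1% in rapamycin-treated WT, and 12.1% and 13.3% in untreated WT.

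**Figure D3:**
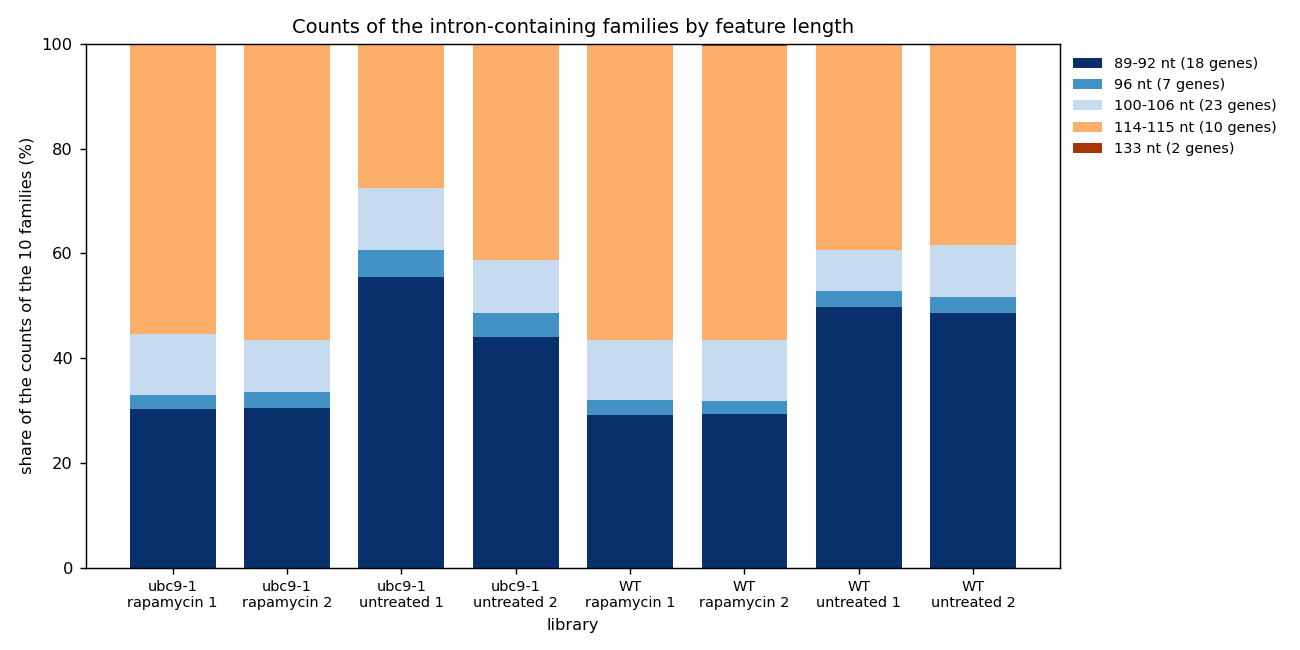
Share of the counts of the 10 families (%) held by genes of each length class in each library. The genes of 114 to 115 nt, all tL(CAA), hold 55.2% to 56.4% in the 4 rapamycin-treated libraries and 27.4% to 41.2% in the 4 untreated ones.

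As a share of all nuclear tRNA counts, the 10 families held 4.12% and 4.60% in rapamycin-treated ubc9-1, 3.20% and 4.68% in untreated ubc9-1, 2.44% and 1.74% in rapamycin-treated WT, and 6.86% and 5.89% in untreated WT. In WT the treated libraries were below the untreated ones, and in ubc9-1 they overlapped. Without the families tD(GUC) and tG(GCC), which hold most nuclear tRNA counts, the shares were 13.1% and 14.3% in rapamycin-treated ubc9-1, 11.8% and 14.8% in untreated ubc9-1, 13.6% and 9.50% in rapamycin-treated WT, and 23.7% and 21.4% in untreated WT. The direction in WT was the same with these families left out.

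Single genes give the detail within families, with the limit that copies share reads. Of the 60 genes, 58 had a count in any library and 57 passed the filter on low counts. In rapamycin-treated WT 53 of these were called lower than in untreated WT (11.6% of the 6115 features tested were), including all genes of tF(GAA), tI(UAU), tK(UUU), tL(CAA), tS(CGA), tW(CCA) and tY(GUA), 2 of 3 in tL(UAG), 5 of 7 in tP(UGG) and 2 of 3 in tS(GCU). In untreated ubc9-1 31 were called lower than in untreated WT (2.40% of features were), with all 10 of tL(CAA), 8 of 10 of tF(GAA), all 6 of tW(CCA), 4 of 7 of tP(UGG), both of tI(UAU) and 1 of 3 of tL(UAG). None was called by edgeR for rapamycin in ubc9-1 (1.49% of features were, in either direction), for the strains with the drug (2.01%) or for the interaction (0.164%). An unadjusted p under 0.05 was reached by 19 of the 57 for rapamycin in ubc9-1, 1 for the strains with the drug and 42 for the interaction. Among the 207 intronless tRNA genes tested, 7, 17 and 76 reached it in that order. The share over all single features was not counted, and identical genes that share reads are not separate results.

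Genes with one sequence did not always have one count. The 6 identical tK(UUU) genes had 4854 to 4878 counts over all libraries, and the 6 identical tW(CCA) genes 6735 to 7794. The identical tL(UAG)J and tL(UAG)L2 had 8323 and 1634 counts, a 5.09-fold gap. The identical tP(UGG)N2, tP(UGG)H and tP(UGG)N1 had 1451, 157 and 9 counts, and all 9 of tP(UGG)N1 were in 1 untreated WT library. The genes tP(UGG)O1 and tP(UGG)O2 were at 0 in all libraries, each below a limit of 3 counts, which covers counting error only. tP(UGG)H, tP(UGG)N1, tP(UGG)O1 and tP(UGG)O2 are the 4 members that overlap another annotated feature, YHR145C, YNL042W-B, YOL013W-A and YOR072W-B in that order, and reads in overlapping features were not assigned.

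**Figure D4:**
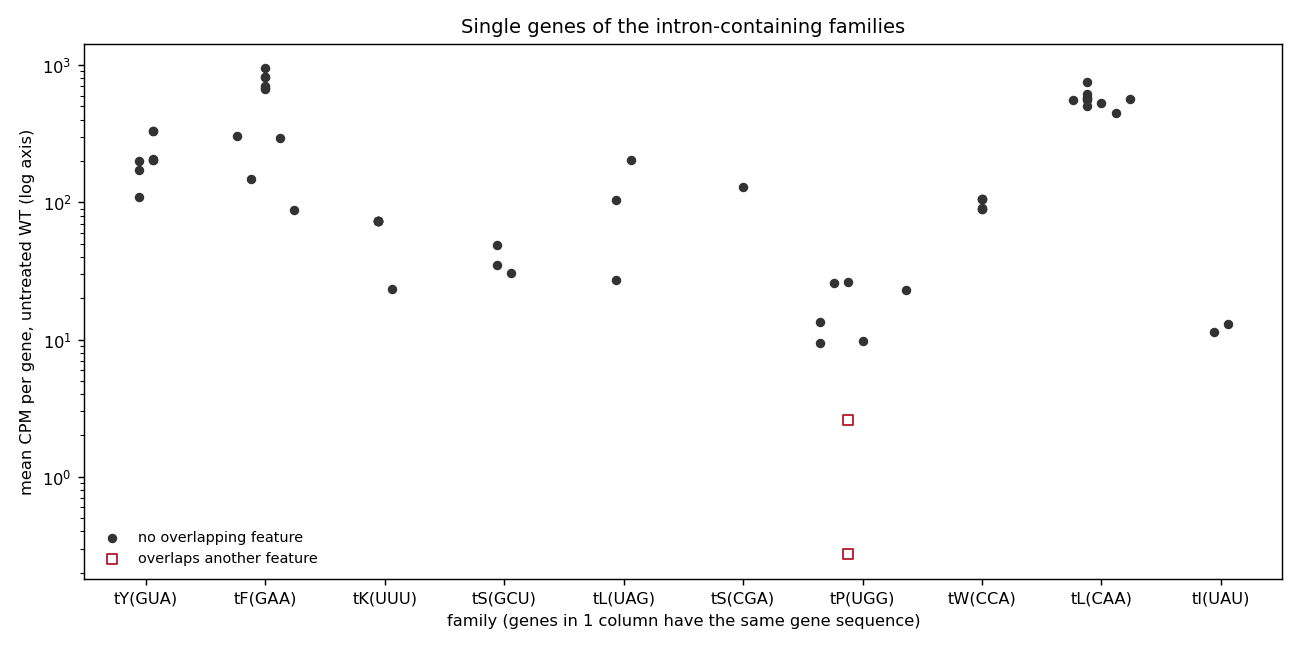
Mean CPM of each gene over the 2 untreated WT libraries (log axis), with genes of one sequence in one column; squares overlap another annotated feature. Identical tK(UUU) genes coincide, and the 2 squares, tP(UGG)H and tP(UGG)N1, lie below the other tP(UGG) genes; tP(UGG)O1 and tP(UGG)O2, at 0, cannot be shown on a log axis.

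Genes for the processing, modification, export, import, splicing and decay of tRNA, and the repressor gene MAF1, were also counted. Most were counted as fragments of longer RNAs, and their counts below are not scaled. Of 28 such genes, 8 were called lower and 0 higher in rapamycin-treated WT, where 10.5% of all rows were called lower. UTP8, of nucleolar tRNA export, had 20 and 34 counts in rapamycin-treated WT and 116 and 304 in untreated WT, a change of -3.72 (SE 0.498, adjusted p = 6.79e-05). TRZ1, the endonuclease of the 3′ end, had 18 and 66 counts in rapamycin-treated WT and 116 and 298 in untreated WT, a change of -3.11 (SE 0.462, adjusted p = 0.000162). Both were lower in each treated library. LOS1, the main nuclear exporter of tRNA, had 75 and 127 counts in rapamycin-treated WT and 162 and 312 in untreated WT, a change of -2.05 (SE 0.409, adjusted p = 0.00198).

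The modification enzymes PUS1, NCL1, TRM5 and PUS7 changed by -1.87, -1.79, -1.41 and -1.10, with adjusted p of 0.00184, 0.000185, 0.0185 and 0.0249. LHP1, the La protein that binds precursor ends, fell by 1.18 (adjusted p = 0.0448). The 4 subunits of the splicing endonuclease passed in neither direction, with SEN2 at -1.38, SEN15 at -1.70, SEN34 at 1.41 and SEN54 at 0.57, and SEN15 had at most 16 counts in a library. The ligase TRL1 stood at -0.75 (adjusted p = 0.325) and MAF1, the repressor of RNA polymerase III, at -0.14 (adjusted p = 0.865).

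In ubc9-1 1 of the 28 was called with rapamycin, beside 1.95% of all rows; it was PUS7, at -1.43 (SE 0.335, adjusted p = 0.0342). LOS1 stood at -1.41 (adjusted p = 0.114), TRL1 at -0.79 (adjusted p = 0.716), LHP1 at -0.01 (adjusted p = 0.998) and MAF1 at -0.05 (adjusted p = 0.989). The strains gave 0 calls in either direction without the drug in the edgeR test, beside 119 rows lower and 174 higher of 5893. An unadjusted p under 0.05 was reached by 1 of the 28 and by 1310 of the 5893 rows. With the drug 1 of the 28 was called, beside 4.14% of all rows. This gene, TRZ1, was higher in ubc9-1, at 65 and 96 counts, than in WT, at 18 and 66 counts, by 1.85 (SE 0.456, adjusted p = 0.0351). LHP1, LOS1, TRL1 and MAF1 differed between the strains by -0.14, -0.63, -0.79 and -0.75 without the drug and by 1.03, 0.00, -0.83 and -0.67 with it, with adjusted p of 0.166 or more. None of the 28 passed the edgeR interaction test, which 0.339% of all rows did. An unadjusted p under 0.05 was reached by 3 of the 28 and by 806 of the 5893 rows.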

How the data were processed

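Small RNA of 8 libraries was counted per gene. Build R64, featureCounts 1.4.6-p3 and TopHat2 2.0.13 are named in the submitters' processing notes. Per the file headers, the deposited counts are raw gene-level counts of paired reads, with every alignment of a multi-mapping read counted, no strand option and no option for overlapping genes; the gene lengths are whole spans. The deposited CPM differed from CPM computed here by at most 4.4e-10 and served an alternative test only. Library totals limit the precision, and floors cover counting error only. Positions, strands, introns and sequences came from the R64 reference, whose 275 tRNA entries matched the count table in coordinates and strand.

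Nuclear tRNA genes were replaced by sums over their 42 anticodon families. TMM factors from single features and filterByExpr with a minimum count of 10 were used, which kept 5893 rows, or 6115 single features. The quasi-likelihood F test of edgeR 4.0.16 (R 4.3.3) was run over all 8 libraries with 1 coefficient per group, a common dispersion of 0.0862, 12.4 prior and 4 residual degrees of freedom, and Benjamini-Hochberg adjustment over all rows, called at 0.05. SE is the absolute log2 fold change over the square root of F, and is approximate. The fit was tested on simulated data. No 2 libraries of a group agreed within sampling noise. Alternatives were DESeq2 1.42.0, limma 3.58.1 on log2(CPM + 1), 3 other scalings, no filter, a replicate block, 1 gene per distinct sequence and each library left out.

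All 10 families were tested in every comparison, but not all are named in each. For rapamycin in the mutant, tP(UGG), at a log2 fold change of -0.35, and tS(CGA), at -0.77, are not named above. For the interaction, values are not given above for tK(UUU), tL(UAG), tP(UGG) and tY(GUA), at 1.50, 1.60, 1.85 and 1.40. The rule for other names took members that stand apart or are at 0, called pathway genes, and LHP1, LOS1, TRL1, MAF1 and UBC9. The SEN genes, ADE2 and TRP1 fall outside that rule and were picked once their values were known. The member rule uses names alone, but the members and lists were chosen as a topic with earlier results of these data known.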

Additional observations from a re-analysis of the deposited data

How the results depend on the processing

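Fold changes are log2, and a median counted as moved when it shifted by more than the pooled SD of library medians, 0.682. For rapamycin in WT no value changed sign under any of the 16 alternatives run, and 10 of 160 family values lost their call; leaving out each library in turn gave 6 to 10 families lower and medians of -3.02 to -1.47. For rapamycin in ubc9-1, scaling by the 76 annotated snoRNA features found in R64 gave 3 families lower and turned tI(UAU) to -0.46 and tL(CAA) to -0.13. Leaving out 1 library gave medians of -0.995 to 0.10 and values of -0.28 to 0.51 in tI(UAU), -0.75 to 0.58 in tL(UAG), -1.67 to 0.51 in tS(GCU), -0.49 to 0.26 in tW(CCA) and -1.64 to -0.39 in tY(GUA). For the strains without the drug, 2 families were lower with total counts, 2 with snoRNA factors, where the median was -0.77, and 2 with limma, against 8 with DESeq2 and 10 without a filter; leaving out 1 library gave 2 to 9, and -2.93 to 0.093 in tS(GCU).

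For the strains with the drug, where no family was called under any alternative, 35 of 160 values changed sign. Total counts gave -0.0609 in tF(GAA), -0.0831 in tK(UUU), -0.23 in tL(CAA), -0.27 in tL(UAG), -0.31 in tS(CGA), -0.21 in tS(GCU) and -0.32 in tW(CCA), and limma gave -0.021, -0.012, -0.19, -0.14, -0.295, -0.18 and -0.32 in the same order. tY(GUA) was at 0.043 with snoRNA factors, and tS(GCU) at -0.0228 with 1 gene per distinct sequence. Leaving out 1 library gave medians of -0.37 to 0.73 and values of -0.18 to 0.81 in tF(GAA), -0.36 to 0.10 in tI(UAU), -0.29 to 0.94 in tK(UUU), -0.37 to 0.68 in tL(CAA), -0.58 to 1.01 in tL(UAG), -0.83 to 0.79 in tP(UGG), -0.302 to 0.39 in tS(CGA), -0.51 to 0.91 in tS(GCU), -0.32 to 0.41 in tW(CCA) and -0.56 to 0.59 in tY(GUA). The interaction stayed above 0 in all 10 families under every alternative run. Without a filter 3 families were called, beside 24 rows lower and 60 higher of 6508. With DESeq2 4 were, beside 29 rows lower and 79 higher of 5893. Leaving out 1 library gave medians of 1.16 to 2.33, and values as low as 0.0194 in tS(GCU) and 0.686 in tS(CGA). The cause of these shifts was not tested.

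A fit with the replicate number as a block called 10 families in the interaction, 10 for the strains without the drug and 1, tY(GUA), for rapamycin in ubc9-1, and put tY(GUA) at 0.025 for the strains with the drug. The labels do not say that a number marks a shared culture or day, and the main fit took the numbers not to pair the samples. Over all rows, same-numbered libraries correlated at 0.07 to 0.17 in their deviations from the group means. A correlation over all rows cannot decide whether the samples are paired for these 10 families. In the TMM-scaled levels replicate 1 lay above replicate 2 in every family and group but tK(UUU) in rapamycin-treated ubc9-1, at a ratio of 0.993. Replicate 1 also had the lower TMM factor in each group, at 0.69 to 1.11 against 1.03 to 1.37 for replicate 2.

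Scaling moved the median of all rows to 0.56, -0.03, 0.21, -0.34 and -0.60 with total counts, for rapamycin in WT, rapamycin in ubc9-1, the strains without and with the drug, and the interaction, and to 0.32, -0.65, 1.06, 0.12 and -0.998 with snoRNA factors. With 102 to 404 counts per library tI(UAU) was the least counted family, and a lone library left in a group was assumed to vary like the other groups.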
